A study of Mus musculus with 20 samples.

Results

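The 9 genes described here are markers of striatal medium spiny neurons: Drd1, Drd2, Adora2a, Ppp1r1b, Rgs9, Gng7, Ido1, Pde10a and Rasd2. They were chosen by name, as the rows of the deposited count table that carry these symbols, and make up 9 of its 29671 genes. All 9 passed the filter on low counts, which kept 16727 genes. RNA was measured in punches taken from both sides of the amygdala, a forebrain structure involved in fear and stress responses. The 20 libraries came from 20 male C57B6 mice of a line first obtained from Taconic and bred in house, sampled at postnatal day 84 with no behavioural testing. The F1 stress and F2 stress mice were the F1 and F2 descendants of mice put through chronic unpredictable stress, and the F1 no-stress and F2 no-stress mice descended from a lineage without it. Each of these 4 groups held 5 mice, called biological replicates in the labels. The mice carried no stated engineered allele. The labels name no litter, sire or batch, so whether mice of a group shared parents is unknown. The p-values measure the spread between these mice only, not between stressed ancestors.

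Medium spiny neurons are the GABA-releasing projection neurons that make up most of the striatum, which lies next to the amygdala. They receive dopamine and form a direct pathway, whose neurons carry the D1 receptor, and an indirect pathway, whose neurons carry the D2 receptor and the adenosine receptor encoded by Adora2a. Both receptor classes act through G proteins on cyclic AMP, which controls protein kinase A and the phosphoprotein DARPP-32. Dopamine receptors and related genes are also used by neurons of the amygdala itself, among them those of the central nucleus and the intercalated cell masses. In bulk tissue, fewer cells of a type and less RNA per cell cannot be told apart.

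In GRCm38 coordinates, Drd1 (ENSMUSG00000021478) is on the minus strand of chr13:54051183-54055705 and Drd2 (ENSMUSG00000032259) on the plus strand of chr9:49340627-49408177. Adora2a (ENSMUSG00000020178) is on the plus strand of chr10:75316877-75334784, and Ppp1r1b (ENSMUSG00000061718) on the plus strand of chr11:98348404-98357796. Rgs9 (ENSMUSG00000020599) is on the minus strand of chr11:109225355-109298129, and Gng7 (ENSMUSG00000048240) on the minus strand of chr10:80948624-81014945. Ido1 (ENSMUSG00000031551) is on the minus strand of chr8:24584136-24597009, and Rasd2 (ENSMUSG00000034472) on the plus strand of chr8:75213944-75224113. Pde10a (ENSMUSG00000023868) is on the plus strand of chr17:8525372-8986648. All 9 are annotated as protein coding. The exons of Ppp1r1b overlap those of 1700003D09Rik on the other strand, which had at most 1 count in any library, and no other member shares exons with another gene.

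The promoters of both dopamine receptor genes are shown because they mark the direct and the indirect pathway and the levels of these genes moved together across libraries, as described below. Each window runs from 250 bases before to 50 bases after a RefSeq transcript start (GRCm38.p6), 5′ to 3′ on the gene's strand. The capitals mark GGGCGG, a GC box, or its reverse complement.
Drd1, chr13:54055609-54055908, minus strand: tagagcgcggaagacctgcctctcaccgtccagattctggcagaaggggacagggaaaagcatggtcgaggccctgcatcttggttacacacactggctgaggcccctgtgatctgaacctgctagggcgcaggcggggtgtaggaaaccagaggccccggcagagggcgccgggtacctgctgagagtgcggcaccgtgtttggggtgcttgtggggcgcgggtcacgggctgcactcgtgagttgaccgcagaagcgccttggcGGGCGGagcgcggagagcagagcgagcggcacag
Drd2, chr9:49340153-49340452, plus strand: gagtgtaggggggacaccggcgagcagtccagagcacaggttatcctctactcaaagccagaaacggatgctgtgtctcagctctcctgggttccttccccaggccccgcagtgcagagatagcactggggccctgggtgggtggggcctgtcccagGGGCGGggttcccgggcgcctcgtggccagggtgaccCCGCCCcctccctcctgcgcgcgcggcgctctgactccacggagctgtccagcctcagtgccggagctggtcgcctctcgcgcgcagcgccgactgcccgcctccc
This Drd1 window held 1 GC box at 65.7% GC, and the Drd2 window held 2 at 70.3% GC. Drd1 has a second RefSeq window at chr13:54054731-54055030, also with 1 GC box, at 59.3% GC; the one printed is the farther upstream. RefSeq windows were matched for 6 of the 9 genes (Drd1, Drd2, Gng7, Pde10a, Rasd2 and Rgs9), 9 windows in all. The letters GGGCGG, on either strand, were found in 7 of these 9 windows, and in 35.7% of the 32851 promoter windows of the same length. TATAAA was found in 1 of the 9 windows, that of Rgs9, against 13.6% of all windows. TGACG, the core of a cyclic AMP response element, was found in 1 Gng7 window, against 20.8% of all. The full element TGACGTCA, which contains TGACG, was in 0 of the 9 windows, against 1.79% of all, and AGGTCA, a core motif of nuclear receptor elements, was in 0, against 16.3%. The windows of these genes had between 56.7% and 74.7% GC, and the median promoter had 52.7%.

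Library totals lay between 13654890 and 13714805 counts, within 0.44% of each other, and the biological coefficient of variation was 18.1% over all genes tested. Levels are given as CPM, counts scaled by library total and TMM factor (0.956 to 1.042). All 9 markers were detected in every library. The least abundant reading was 4 counts of Ido1 in F2 stress replicate 14. Markers of pallial excitatory neurons, the main cells of the basolateral amygdala, summed to 216 to 1290 CPM in F1 stress, 442 to 1340 CPM in F1 no-stress, 428 to 1230 CPM in F2 stress and 132 to 1410 CPM in F2 no-stress libraries. Markers of the central amygdala summed to between 152 and 362 CPM over all libraries, so genes of both lists were detected in each. The most abundant gene was Sst in the central list (mean 111 CPM) and Slc17a7 in the pallial list (mean 564 CPM). In F2 no-stress libraries Slc17a7 went down to 29.5 CPM, Neurod6 to 0.50 CPM and Emx1 to 0.14 CPM. How much of each punch was amygdala was not measured. Of the 9 central and 10 pallial markers, 0 were at zero in any library. F2 stress replicate 14 stood apart beyond genes of striatal cells. It was also the lowest of the 20 libraries in the summed markers of oligodendrocytes (1715 CPM), microglia (191.4 CPM) and endothelial cells (94.16 CPM). The same held for the choroid plexus (18.37 CPM) and, among striatal cells, cholinergic interneurons (9.852 CPM). Replicate 14 was also lowest for intercalated cells (283.3 CPM), but the most abundant gene of that sum, Meis2 (mean 297 CPM), itself moved with the 9 markers (r = 0.905). Replicate 14 was not the lowest for astrocytes (1017 CPM), the central amygdala (302 CPM) or pallial excitatory neurons (670.3 CPM). The part of these differences in the marker values was not tested.

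The levels of the 9 markers relative to each other kept much of the same order in every library. Per kilobase of the longest transcript, Ppp1r1b, which encodes DARPP-32, averaged 359 ± 202 CPM per kb over the 20 libraries (SD, n = 20). Gng7, the gamma subunit that joins the olfactory-type G protein in striatal neurons, averaged 180 ± 91.9 CPM per kb, and Rasd2, which encodes the small GTPase Rhes, averaged 110 ± 66.3 CPM per kb. Pde10a, a phosphodiesterase that degrades cyclic AMP and cyclic GMP, averaged 85.7 ± 49.6 CPM per kb. Those 4 genes kept this order in nearly every library, with Ppp1r1b above Gng7 in 19 of 20 and Gng7 above Rasd2, Rasd2 above Pde10a and Pde10a above Rgs9 in 20 of 20. The next 4 were not separated beyond their spread: Rgs9 (49.9 ± 28.9 CPM per kb) was above Adora2a (47.8 ± 28.8) in 11 of 20 libraries, Adora2a above Drd2 (44.1 ± 24.2) in 13, and Drd2 above Drd1 (37.4 ± 17.1) in 13. Ido1, an enzyme of tryptophan breakdown, was lowest in all 20 libraries at 4.82 ± 3.39 CPM per kb. With the combined length of all exons in place of the longest transcript, Rgs9 ranked at place 8, below Drd1, at 28.4 CPM per kb.

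Between mice of the same group, these genes varied far more than most. The biological coefficient of variation of each, estimated around the 4 group means, was 44.6% for Drd1, 55.8% for Drd2, 59.3% for Adora2a, 57.4% for Ppp1r1b, 56.3% for Rgs9, 46.3% for Gng7, 70.5% for Ido1, 58.5% for Pde10a and 53.8% for Rasd2. The median gene tested had 15.1%, and between 96.3% and 99.4% of all genes had a lower value than a given marker. F2 stress replicate 14 was the lowest of the 20 libraries for all 9 markers. The highest library was F2 stress replicate 15 for Drd1, Drd2, Ppp1r1b, Gng7 and Rasd2, F2 no-stress replicate 16 for Adora2a and Rgs9, and F1 no-stress replicate 9 for Ido1 and Pde10a. The ratio of the highest to the lowest library was 7.93 for Rasd2, 8.56 for both Drd1 and Gng7, and between 14.6 and 29.6 for Pde10a, Drd2, Rgs9, Ppp1r1b and Adora2a. It was 72.3 for Ido1, where it rests on the 4 counts of replicate 14.

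**Figure D1:**
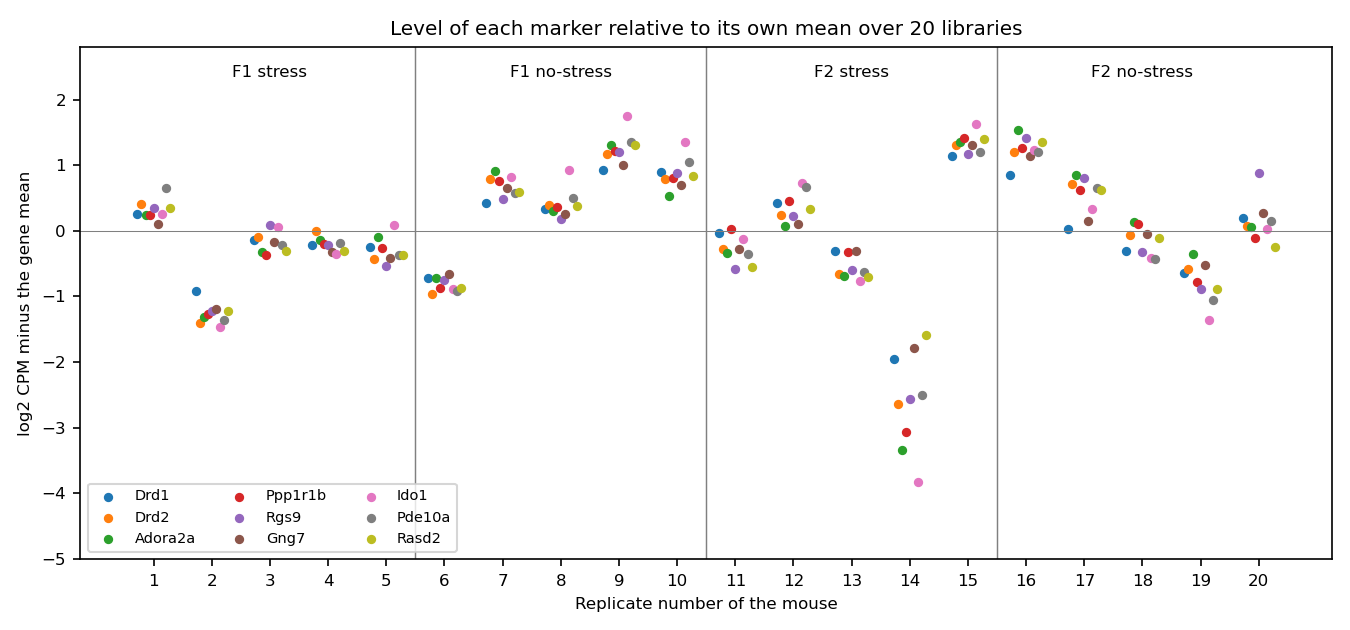
Level of each of the 9 markers in each of the 20 libraries, as log2 CPM minus that gene's mean over the 20 libraries (y axis), by replicate number of the mouse (x axis) and group; each point is 1 gene in 1 library, and points of a library are set side by side. In F2 stress replicate 14 all 9 genes lie at their lowest level, and in F2 stress replicate 15, F2 no-stress replicate 16 and F1 no-stress replicate 9 all 9 lie above their means.

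The 9 markers went up and down together across libraries. Over the 36 pairs of markers, Pearson's r of log2 CPM across the 20 libraries ran from 0.912 to 0.981 (median 0.958) and Spearman's rho from 0.893 to 0.98. Every pair had a permutation p of 1e-05 by either measure (two-sided, 100000 resamples, adjusted p over the 36 pairs also 1e-05), the smallest these resamples can give. The genes were chosen as markers of the same cell type, with earlier results of these data known. These p-values are therefore no independent support, and the r values serve as a description. Without the 2 libraries farthest from the median of the first gene, r ran from 0.859 to 0.98, and with each library centred on its group mean it ran from 0.917 to 0.991. All genes of a library come from the same punches, and the pairs share genes, so the 36 values are not independent of each other. The D1 and D2 receptor genes, which mark different pathways, had r = 0.963 and rho = 0.952, and r = 0.929 without F2 stress replicates 14 and 15. The lowest r was that of Adora2a with Rasd2, at 0.912, and the highest that of Drd2 with Ppp1r1b, at 0.981.

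The markers differed in how steeply they moved. The slope of a gene's log2 CPM on the mean of the other 8 was 0.74 for Drd1, 0.76 for Gng7 and 0.86 for Rasd2. It was 0.99 for Rgs9, 1.01 for Drd2, 1.04 for Pde10a, 1.07 for Ppp1r1b and 1.12 for Adora2a. Ido1 had a slope of 1.39. In F2 stress replicate 14, Ido1 and Adora2a lay farthest below their means, and Drd1, Gng7 and Rasd2 lay nearest to theirs.

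In F1, mice of the stress lineage had lower group means of all 9 markers than mice of the no-stress lineage, but no marker passed the test. The 9 log2 fold changes, stress over no-stress, lay between -1.21 and -0.69 (median -0.85), and 9 of 9 were below 0, as were 49% of all genes tested. Since the markers move together, these 9 values are not 9 separate pieces of evidence. Of the 9 markers 0 were called at an adjusted p below 0.05 (edgeR quasi-likelihood test, Benjamini-Hochberg over 16727 genes), and 0 had an unadjusted p below 0.05. Over all genes 0% were called, with 1030 at an unadjusted p below 0.05. DESeq2 called 2 genes and limma-voom 0, and each called 0 markers. With 1 surrogate variable in the model the direction turned, with a median of 0.18 and 8 of 9 markers above 0, and 0 called. The 2 groups overlapped for all 9 markers, and did not overlap for 1.24% of all genes.

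Drd1 had 144, 63.6, 108.7, 102.8 and 101.3 CPM in the 5 F1 stress libraries, against 73.18, 160.7, 151.4, 229 and 223 CPM in the 5 F1 no-stress libraries. F1 no-stress replicate 6 lay within the stress range, and the other 4 no-stress libraries lay above every stress library. The log2 fold change was -0.69 ± 0.42 (SE), with a 95% interval of -1.56 to 0.18 (edgeR, adjusted p = 0.739).

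Drd2 had 125.1, 35.53, 88.69, 93.91 and 70.35 CPM in F1 stress libraries, against 48.45, 163.5, 124.2, 212.1 and 163 CPM in F1 no-stress libraries. Here 3 no-stress libraries lay above every stress library. The log2 fold change was -0.78 ± 0.53 (edgeR, adjusted p = 0.74). Adora2a, the receptor that acts against D2 signalling in the same neurons, had 119.4, 40.72, 80.76, 91.33 and 94.96 CPM in F1 stress libraries, against 61.32, 189.2, 124.6, 248.8 and 146.4 CPM in F1 no-stress libraries. Replicate 6 was again the one no-stress library inside the stress range. Its log2 fold change was -0.85 ± 0.56 (edgeR, adjusted p = 0.74).

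Ppp1r1b had 701.9, 247.8, 462.3, 517.6 and 496.6 CPM in F1 stress libraries, against 326.8, 1003, 761.9, 1388 and 1038 CPM in F1 no-stress libraries. As for Drd1, the groups overlapped through no-stress replicate 6. The log2 fold change was -0.90 ± 0.55 (edgeR, adjusted p = 0.739). Gng7 had 588.7, 238.5, 485.9, 437.5 and 409.3 CPM in F1 stress libraries, against 345.3, 861.2, 655.4, 1098 and 889 CPM in F1 no-stress libraries. It had the smallest unadjusted p of the 9, 0.0694 (edgeR, adjusted p = 0.739), and a log2 fold change of -0.83 ± 0.43.

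Ido1 had 7.10, 2.06, 6.22, 4.65 and 6.34 CPM in F1 stress libraries, against 3.14, 10.6, 11.4, 20.3 and 15.4 CPM in F1 no-stress libraries. It had the most negative value of the 9 and the widest interval, a log2 fold change of -1.21 ± 0.64 with a 95% interval of -2.55 to 0.13 (edgeR, adjusted p = 0.739). Rgs9, the RGS protein that speeds GTP hydrolysis by G proteins downstream of dopamine receptors, averaged 123.7 ± 46.7 CPM in F1 stress and 208.8 ± 94.0 CPM in F1 no-stress libraries (SD, n = 5 each), a log2 fold change of -0.76 ± 0.53. Pde10a averaged 492.8 ± 234.9 CPM in F1 stress and 886 ± 419.6 CPM in F1 no-stress libraries, a log2 fold change of -0.85 ± 0.56. Rasd2 averaged 214.2 ± 78.6 CPM in F1 stress and 399.5 ± 184.7 CPM in F1 no-stress libraries, a log2 fold change of -0.90 ± 0.51. For these 3 genes, too, the groups overlapped and the test was not passed.

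**Figure D2:**
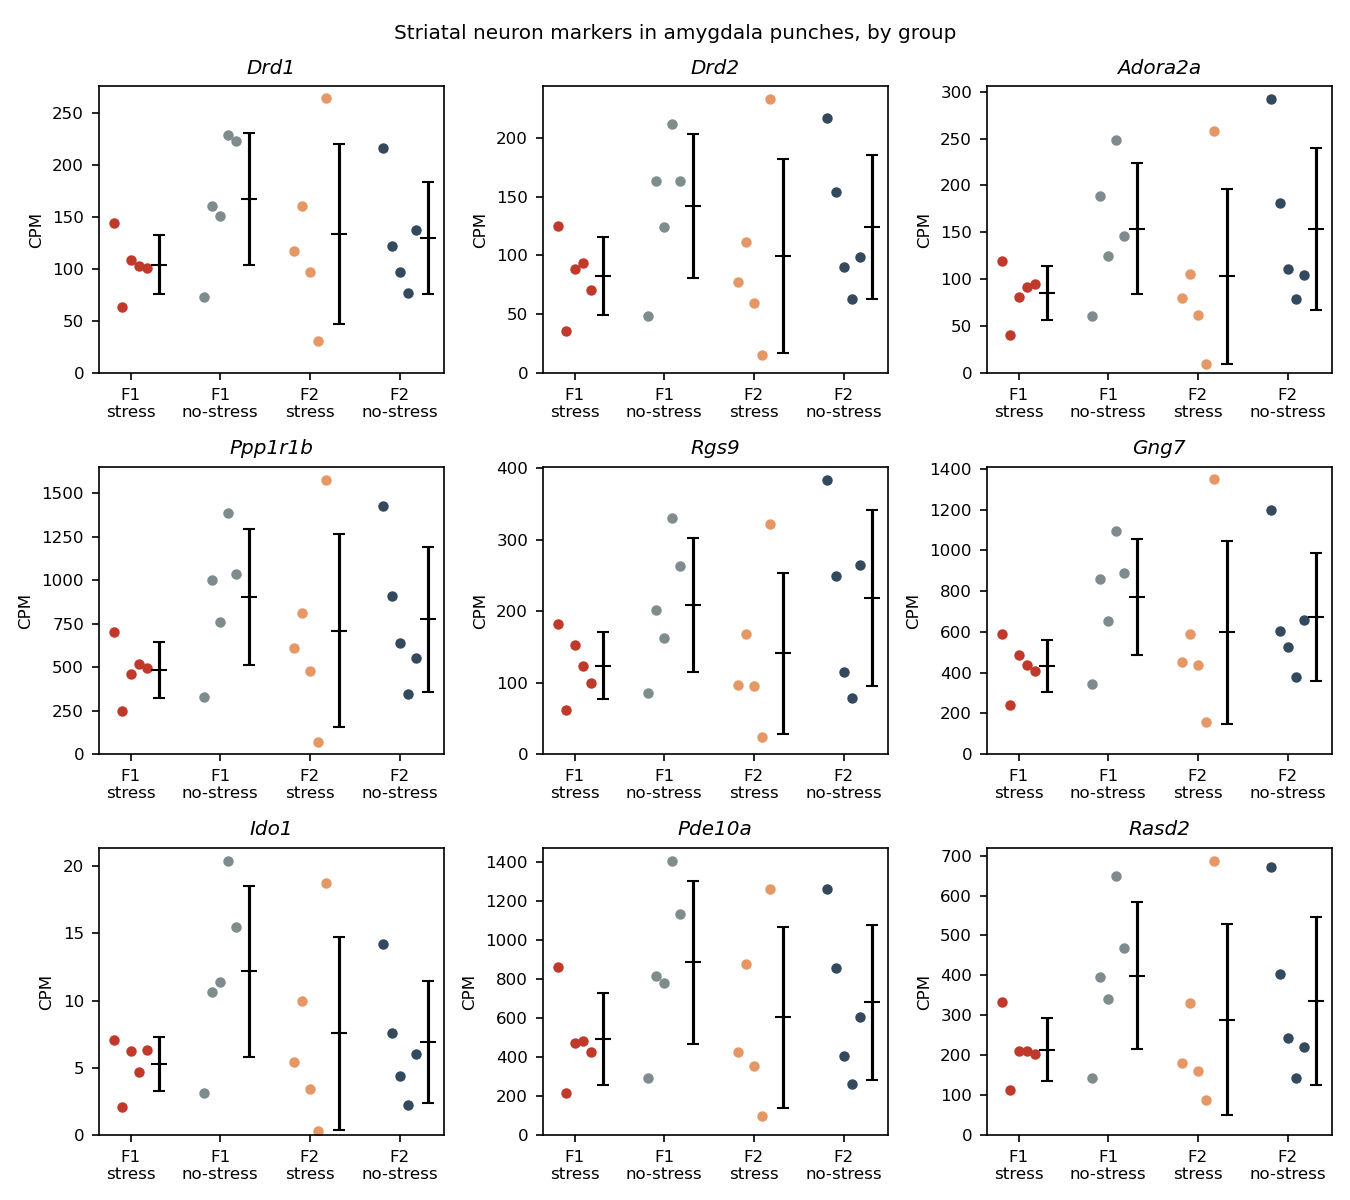
CPM (y axis, linear) of each of the 9 markers in the 4 groups (x axis), with 1 point per mouse and a bar giving the mean ± SD of 5 mice. Group ranges overlap for every marker, and F2 stress contains the lowest library of all, replicate 14, as well as replicate 15, which is among the highest.

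In F2, the markers lay on both sides of 0 between lineages, and none passed the test. Of the 9 log2 fold changes, stress over no-stress, 7 were below 0, as were 49.8% of all genes tested, and the median was -0.17 (range -0.63 to 0.13). Of the 9 markers 0 were called (edgeR quasi-likelihood test, adjusted p below 0.05), against 7.92% of all genes (1324, of which 441 were higher and 883 lower). Again 0 markers had an unadjusted p below 0.05, against 4274 of all genes, and DESeq2 and limma-voom each called 0 markers. With limma-voom all 9 were below 0 (median -0.52), and with 1 surrogate variable 1 marker was called, Adora2a at -0.69 (edgeR, adjusted p = 0.0228). The 1324 calls over all genes themselves depended on the fit, with 0 when only the groups compared entered it, 8 with an offset for GC content and length, and 241 (without F2 stress replicate 11) to 2431 (without F2 stress replicate 15) when 1 library was left out. The groups overlapped for all 9 markers, and did not overlap for 4.61% of all genes.

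The values in F2 depended on single libraries. Drd1 had 117.5, 160.5, 96.67, 30.89 and 264.3 CPM in F2 stress libraries, against 216.4, 122.1, 97.01, 76.81 and 137.5 CPM in F2 no-stress libraries. Both the lowest and the highest library belonged to the stress group, and its log2 fold change was 0.04 ± 0.41, with a 95% interval of -0.82 to 0.91 (edgeR, adjusted p = 0.964).

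Drd2 had 77.72, 111.9, 59.74, 15.06 and 233.3 CPM in F2 stress libraries, against 216.9, 154, 89.83, 63.2 and 99.1 CPM in F2 no-stress libraries. The no-stress range lay inside the stress range, and the log2 fold change was -0.32 ± 0.52 (edgeR, adjusted p = 0.74). Adora2a had 80.14, 105.8, 62.39, 9.852 and 257.6 CPM in F2 stress libraries, against 292, 181.7, 111.2, 78.62 and 104.8 CPM in F2 no-stress libraries. Its highest library was no-stress replicate 16, and its log2 fold change was -0.58 ± 0.56 (edgeR, adjusted p = 0.546).

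Ppp1r1b had 608.5, 810.9, 476.2, 70.73 and 1577 CPM in F2 stress libraries, against 1428, 912.3, 636.6, 346.6 and 551.6 CPM in F2 no-stress libraries. The stress libraries spanned the whole range, and the log2 fold change was -0.13 ± 0.54 (edgeR, adjusted p = 0.91). Ido1 had 5.42, 9.97, 3.44, 0.28 and 18.7 CPM in F2 stress libraries, against 14.2, 7.56, 4.42, 2.23 and 6.06 CPM in F2 no-stress libraries. Its log2 fold change was 0.13 ± 0.64 (edgeR, adjusted p = 0.926).

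Gng7 averaged 597.4 ± 448.8 CPM in F2 stress and 673.1 ± 313.2 CPM in F2 no-stress libraries (SD, n = 5 each), a log2 fold change of -0.17 ± 0.43. Rgs9 averaged 141 ± 113 CPM in F2 stress and 218.2 ± 123.4 CPM in F2 no-stress libraries and had the most negative value of the 9, a log2 fold change of -0.63 ± 0.53 (edgeR, adjusted p = 0.478). Pde10a averaged 603.8 ± 463.8 CPM in F2 stress and 680.9 ± 396 CPM in F2 no-stress libraries, a log2 fold change of -0.17 ± 0.55. Rasd2 averaged 288.7 ± 239.6 CPM in F2 stress and 335.6 ± 209.9 CPM in F2 no-stress libraries, a log2 fold change of -0.22 ± 0.50. Without F2 stress replicate 14 the median of the 9 was 0.07, without F2 stress replicate 15 it was -0.72, and without F2 no-stress replicate 16 it was 0.18. The sign of the median in F2 therefore rests on which of these libraries is included, and 0 markers were called in any of these fits. The values of Drd1 and Ido1, the 2 markers above 0, were below 0 without F2 stress replicate 15 (-0.36 for Drd1 and -0.53 for Ido1) or without F2 no-stress replicate 19 (-0.097 for Drd1 and -0.095 for Ido1). Drd1 was also below 0 without F2 stress replicate 12 (-0.029) or F2 no-stress replicate 18 (-0.044).

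The difference between the F2 and the F1 lineage effect was positive for 9 of 9 markers, against 49.4% of all genes, with a median of 0.67 on the log2 scale (range 0.13 to 1.34). None of the 9 passed the test of that difference (edgeR, 0 called at an adjusted p below 0.05 and 0 at an unadjusted p below 0.05), against 2.52% of all genes called. Ido1 had the largest difference, 1.34 ± 0.90 (edgeR, adjusted p = 0.42), and Rgs9 the smallest, 0.13 ± 0.75 (edgeR, adjusted p = 0.947). Drd1 had 0.73 ± 0.59 (edgeR, adjusted p = 0.512) and Drd2 0.46 ± 0.74 (edgeR, adjusted p = 0.771). A larger or smaller effect in F1 than in F2 was thus not shown for any marker. With 1 surrogate variable all 9 differences were below 0 (median -0.36), and with limma-voom those of Adora2a (-0.25) and Rgs9 (-0.14) were. Without F2 stress replicate 14 the median was 0.92. Without F2 stress replicate 15 the differences of Drd2, Adora2a and Rgs9 were negative, at -0.13, -0.40 and -0.43. That of Rgs9 was also negative without F1 stress replicate 2, F1 no-stress replicate 9 or F2 no-stress replicate 18 or 19, between -0.10 and -0.035.

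**Figure D3:**
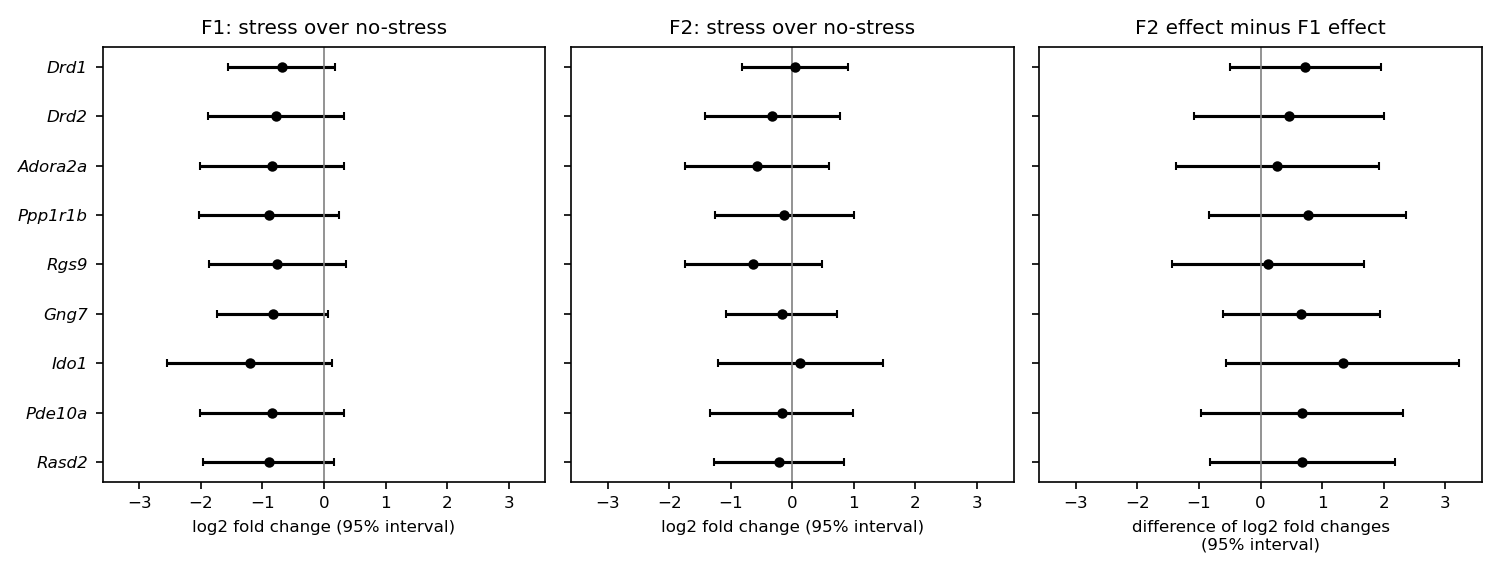
Log2 fold changes of the 9 markers with 95% intervals (x axis) for stress over no-stress in F1 (left panel) and in F2 (middle panel), and the F2 effect minus the F1 effect (right panel). All intervals include 0; the 9 points lie left of 0 in F1, on both sides of it in F2, and right of it in the difference.

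Between generations, the markers were compared within each lineage. In the no-stress lineage, F2 over F1, 8 of the 9 were below 0, against 47.5% of all genes, with a median log2 fold change of -0.22 (range -0.82 to 0.06). In that comparison 0 markers were called (edgeR), against 2% of all genes, and 0 had groups that did not overlap, against 4.52%. In the stress lineage, F2 over F1, 9 of 9 were above 0, against 52.1% of all genes, with a median of 0.36 (range 0.19 to 0.55). Here 0 markers were called (edgeR), against 0.012% of all genes, and 0 had groups that did not overlap, against 0.777%. In both generation comparisons 0 markers had an unadjusted p below 0.05. Without F2 stress replicate 15 the median in the stress lineage was -0.17, and without replicate 14 it was 0.62. It was -0.39 with 1 surrogate variable and -0.03 with limma-voom, and the median in the no-stress lineage was 0.06 with the surrogate variable. These comparisons share their libraries with the lineage comparisons and with each other.

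Genes of the 2 pathways were compared through the log2 ratio of Drd1 to Drd2 within each library, for which library size does not matter. Drd1 moved less steeply with the other markers (slope 0.74) than Drd2 (1.01) or Adora2a (1.12). Ratios with Drd1 therefore also vary with the overall level of the markers, and a shift between the pathways cannot be read from them. The log2 ratio of Drd1 to Drd2 is given first. It was 0.40 ± 0.29 in F1 stress and 0.28 ± 0.25 in F1 no-stress libraries, and 0.61 ± 0.31 in F2 stress and 0.11 ± 0.31 in F2 no-stress libraries (SD, n = 5 each). Over all 20 libraries it ran from -0.34 in F2 no-stress replicate 17 to 1.04 in F2 stress replicate 14, a narrower range than that of either gene on the log2 scale. The groups overlapped in both generations. The ratio of Adora2a to Drd1 averaged -0.69 ± 0.59 in F2 stress libraries, where it was between -1.65 and -0.04, and 0.17 ± 0.38 in F2 no-stress libraries, where it was between -0.39 and 0.57. In F1 that ratio averaged -0.32 ± 0.22 in stress and -0.16 ± 0.34 in no-stress libraries. Adora2a and Drd2, both of the indirect pathway, had a mean log2 ratio of 0.10 ± 0.25 over the 20 libraries. That ratio averaged 0.08 ± 0.23 in F1 stress and 0.13 ± 0.20 in F1 no-stress libraries, and -0.09 ± 0.30 in F2 stress, down to -0.61 in replicate 14, and 0.27 ± 0.13 in F2 no-stress libraries. These ratios were not tested, because both the genes and the ratios were chosen with the values known.

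Other genes of striatal projection neurons moved with the markers. Of a list of 23 such genes, all were tested, and 0 rose and 0 fell in any of the 5 comparisons. In F1, 22 of 23 were below 0 (median log2 fold change -0.58, range -1.23 to 0.26, against a median of 0.00 over all genes), and in F2, 17 of 23 were (median -0.14). The 4 most abundant of them had F1 log2 fold changes of -0.58 ± 0.32 for Penk, the enkephalin precursor of indirect pathway neurons, -0.59 ± 0.30 for Arpp21, a phosphoprotein regulated by cyclic AMP, -1.23 ± 0.74 for Scn4b, a sodium channel beta subunit, and -0.74 ± 0.41 for Pde1b, a calmodulin-dependent phosphodiesterase. In F2 the same genes had -0.27 ± 0.32 for Penk, 0.01 ± 0.30 for Arpp21, -0.13 ± 0.73 for Scn4b and -0.16 ± 0.41 for Pde1b. All 23 genes of the list summed to 2960 to 6330 CPM in F1 stress, 3580 to 10300 CPM in F1 no-stress, 1830 to 11000 CPM in F2 stress and 3840 to 10100 CPM in F2 no-stress libraries. The 9 markers summed to 1020 to 3070 CPM in F1 stress, 1380 to 5580 CPM in F1 no-stress, 492 to 5970 CPM in F2 stress and 1430 to 5690 CPM in F2 no-stress libraries. The 2 lists were at their lowest in the same library, F2 stress replicate 14. The number of such neurons in a punch was not measured, and its part in these values was not tested.

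Among the genes of dopamine and cyclic AMP signalling, 19 of 21 passed the low-count filter, and 0 of them rose or fell in F1 or F2. Their median log2 fold change was -0.34 in F1, with 14 below 0, and -0.01 in F2, with 10 below 0. Gnal, Adcy5 and Pde1b are in this list and also in that of other striatal projection neuron genes. In F1, Ppp3ca, the catalytic subunit of calcineurin, had -0.46 ± 0.25, Gnal, the olfactory-type G protein alpha subunit that couples the D1 receptor to adenylyl cyclase in striatum, had -0.34 ± 0.22, and Prkacb, a catalytic subunit of protein kinase A, had 0.01 ± 0.11. Among close relatives of the markers, 12 of 13 were tested. In F2, 9 of them were above 0 and 3 below (median log2 fold change 0.20). Of these relatives 1, Rgs11, fell in F2, with a log2 fold change of -0.84 ± 0.22 (edgeR, adjusted p = 0.0252, where 7.92% of all genes were called). With only the groups compared in the fit that call was lost, as were all others in F2. Rgs11 was named after its value was seen. It belongs to the same RGS subfamily as Rgs9, and in F1 it had 0.14 ± 0.22.

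Likeness to the markers was measured as the Pearson r, over the 20 libraries, of a gene's log2 CPM with the mean standardised level of the 9, among 15573 genes with a mean of at least 1 CPM. It is given as a description, since the genes were ranked by it. Among the 10 highest were Syndig1l (0.993), Pde1b (0.99), Cd4 (0.988), Gpr6 (0.986), Lrrc10b (0.986), Tgfa (0.985), Ankrd63 (0.983), Scn4b (0.982) and Foxp1 (0.981). Gpr6 is an orphan receptor of striatal neurons, Foxp1 is a forkhead transcription factor, Tgfa is a growth factor and Cd4 is best known as a T cell coreceptor. Without F2 stress replicates 14 and 15 these 9 values lay between 0.968 and 0.993. The 5 most opposite were Plxnc1 (-0.932), Pip5k1b (-0.93), Rxfp3 (-0.914), Gldn (-0.914) and Lhx9 (-0.913), and without those libraries they lay between -0.875 and -0.838. Plxnc1 is a semaphorin receptor, Rxfp3 is the receptor for relaxin-3, and Lhx9 is a LIM homeobox transcription factor.

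**Figure D4:**
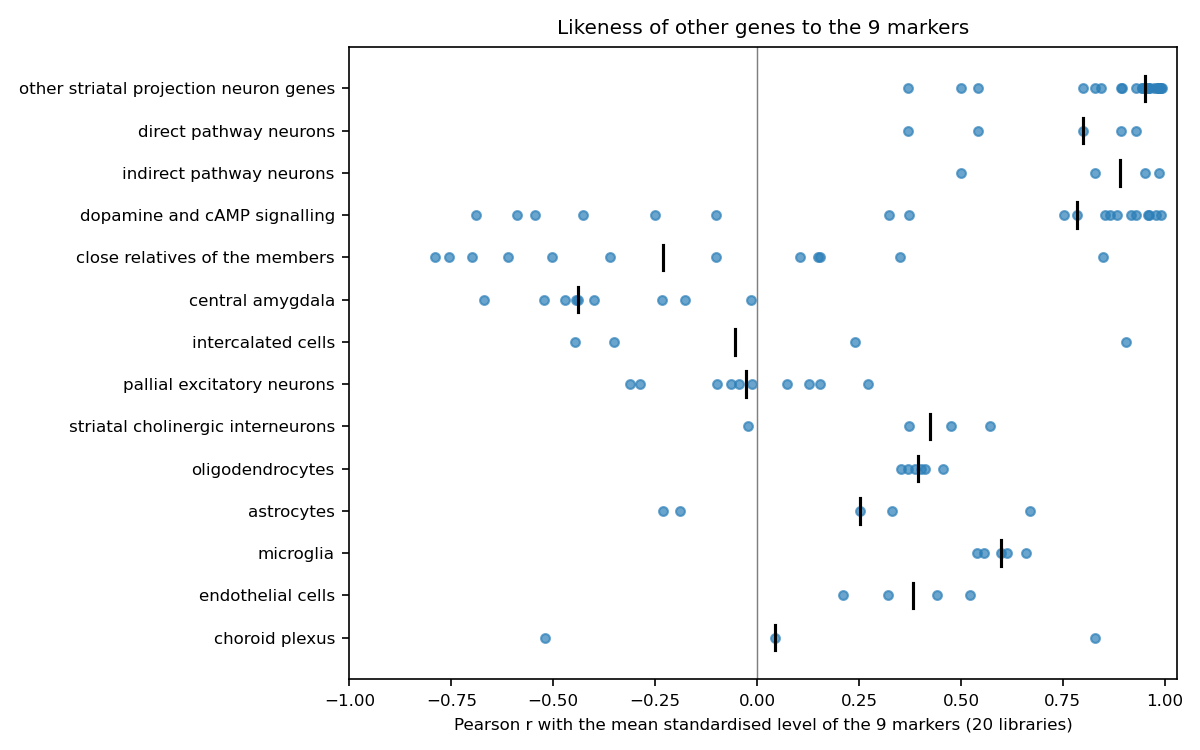
Pearson r over 20 libraries (x axis) between the log2 CPM of each gene (points) of 14 marker lists (rows) and the mean standardised level of the 9 markers, with the median of each list as a vertical bar. Some lists share genes, and a shared gene is drawn in each of its rows. Most other striatal projection neuron genes lie near the right end (median 0.95), central amygdala genes lie below 0 (median -0.44), and pallial excitatory genes lie on both sides of 0 (median -0.03).

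By list, the median r was 0.95 for other striatal projection neuron genes, lowest for Isl1 at 0.37. It was 0.80 for 5 direct pathway genes, highest for Tac1, the substance P precursor, at 0.93, and 0.89 for 4 indirect pathway genes, highest for Gpr6 at 0.99. The genes of these 2 pathway lists are all among the other striatal projection neuron genes, so their values are not separate from that list. Without F2 stress replicates 14 and 15 the median was 0.58 for the direct and 0.79 for the indirect pathway genes. Genes of the dopamine and cyclic AMP list reached from -0.69 for Arrb2, a beta-arrestin, to 0.99 for Pde1b. Relatives of the markers did not follow them as a group (median -0.23), and Gng4, another gamma subunit, had -0.79 and Adora1, the A1 receptor, 0.85. All 9 central amygdala genes were negative, between -0.67 for Dlk1 and -0.02 for Crh. Of the 4 intercalated cell genes, Meis2 had 0.90 and Tshz1 -0.45.

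Lists of other cells gave intermediate values. The 10 pallial excitatory genes lay between -0.31 and 0.27, 6 oligodendrocyte genes between 0.35 and 0.46, 5 astrocyte genes between -0.23 and 0.67, and 4 endothelial genes between 0.21 and 0.52. In F2, 2 of the endothelial genes were below 0 and 2 above (median log2 fold change -0.01, highest 0.28), so the list did not fall as a group. Of the endothelial genes 1, the tight junction gene Cldn5, fell in F2, with a log2 fold change of -0.49 ± 0.14 (edgeR, adjusted p = 0.0411, against 7.92% of all genes called). It averaged 13.83 ± 3.69 CPM in F2 stress and 19.38 ± 2.47 CPM in F2 no-stress libraries. It also rose in F2 over F1 of the no-stress lineage, with a log2 fold change of 0.60 ± 0.14 (edgeR, adjusted p = 0.0415, against 2% of all genes called). There all 4 endothelial genes were above 0 (median 0.18). Both calls were lost with only the groups compared, and Cldn5 was named after its values were seen. The 5 microglial genes lay between 0.54 and 0.66, and 5 of 5 were below 0 in F1 (median log2 fold change -0.19), against 49% of all genes, with 0 called by edgeR. Microglial markers summed to 218 to 279 CPM in F1 stress, 245 to 294 CPM in F1 no-stress, 191 to 384 CPM in F2 stress and 264 to 324 CPM in F2 no-stress libraries. Genes of striatal cholinergic interneurons lay between -0.02 and 0.57, with Slc18a3 at 0 in 1 F2 stress library, and those of the choroid plexus between -0.52 and 0.83. Several of these values rest on F2 stress replicates 14 and 15. Without both, microglial genes lay between 0.18 and 0.34, oligodendrocyte genes between -0.16 and 0.02, endothelial genes between -0.05 and 0.30, astrocyte genes between -0.46 and 0.39 and cholinergic genes between -0.39 and 0.03. Other striatal projection neuron genes then had a median of 0.93, with Isl1 at -0.02, and central amygdala genes remained below 0 (median -0.43). The part of these cells in the values of the 9 markers was not tested.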

How the data were processed

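The deposited values are counts per Ensembl gene and mouse, which the authors made from reads of a stranded poly-A library; per the submitters' processing notes, STAR 2.5.3a and GRCm38 were used. Not given in the sources used here are the counting tool, its annotation and strand setting, and the handling of multi-mapping reads. The totals differ by 0.44%, so some step absent from the labels had brought them together, and the original depth is unknown.

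Each library was taken to its group by its labels. The 16727 genes kept by filterByExpr were tested with edgeR 4.0.16 in R 4.3.3 (quasi-likelihood F test, robust, TMM, 1 mean per group, all 20 libraries in 1 fit), with Benjamini-Hochberg adjustment over all genes and calls at an adjusted p below 0.05. CPM were computed from the counts, and log2 CPM used a prior count of 2. Mean lines are mean ± SD, and fold changes are given with the SE of the fit. The markers and the lists were chosen with earlier results of these data known. All 9 markers are named, with the 10 genes most like them and the 5 most opposite, up to 4 abundant genes per list, and called genes of the striatal and dopamine lists. Rgs11 and Cldn5, called genes of other lists, and genes at the ends of a range fall outside that rule. Of the 10 most like them, 1 is not reported here. Coordinates come from GENCODE M21 (GRCm38) and promoters from RefSeq (GRCm38.p6).

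Other settings were DESeq2 1.42.0, limma-voom (limma 3.58.1), other library factors, no filter, 1 surrogate variable (sva 3.50.0), an offset for GC content and length (known for 16692 genes), only the groups compared, an adjusted p of 0.1, and each library left out. On simulated counts of the F1 comparison (16727 genes), 104 of 200 genes changed 1.5-fold were called, with 4 false calls. Of 200 genes changed 2-fold, 161 were called, with 5 false calls, and 0 were called with no change. The changed genes were drawn at random from all but the least abundant genes, so this recovery does not carry over to the markers. The biological coefficient of variation was 44.6% to 70.5% for the markers and 15.1% for the median gene.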

Additional observations from a re-analysis of the deposited data

How the results depend on the processing

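The 9 markers were called in 0 of the comparisons under the other settings, except that with 1 surrogate variable 1 marker was called in F2, Adora2a, at a log2 fold change of -0.69 (edgeR, adjusted p = 0.0228). The surrogate variable was estimated from all genes, the markers included. With it the F1 median became 0.18, with Drd1 at 0.092, Drd2 at 0.20, Adora2a at 0.18, Ppp1r1b at 0.18, Rgs9 at 0.19, Ido1 at 0.093, Pde10a at 0.19 and Rasd2 at 0.007. The median of the difference between generations became -0.36, with Drd1 at -0.074, Drd2 at -0.60, Adora2a at -0.87, Ppp1r1b at -0.36, Rgs9 at -0.90, Gng7 at -0.12, Ido1 at -0.084, Pde10a at -0.37 and Rasd2 at -0.12. The cause was not tested.

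Limma-voom gave negative values in F2 for Drd1 (-0.17) and Ido1 (-0.54) and for the difference of Adora2a (-0.25) and Rgs9 (-0.14). The offset for GC content and length gave F2 values of -0.029 for Drd1, 0.28 for Ppp1r1b, 0.001 for Gng7 and 0.002 for Rasd2. In every fit that left out 1 library, all 9 markers stayed below 0 in F1 (medians -1.05 to -0.62). In F2, leaving out 1 library gave -0.36 to 0.31 for Drd1, -0.66 to 0.21 for Ppp1r1b, -0.72 to 0.14 for Gng7, -0.53 to 0.57 for Ido1, -0.63 to 0.18 for Pde10a and -0.83 to 0.20 for Rasd2, each lowest without F2 stress replicate 15 and highest without F2 no-stress replicate 16. The difference ran from -0.13 to 0.75 for Drd2, -0.40 to 0.64 for Adora2a and -0.43 to 0.43 for Rgs9.

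Counts of called genes over all genes are given in the order F1, F2, difference, F2 over F1 in the no-stress lineage and F2 over F1 in the stress lineage. At an adjusted p of 0.1 they were 1, 2502, 1359, 1057 and 4, and with DESeq2 they were 2, 2054, 1240, 1028 and 6. Without 1 library they were 0 to 1 in F1, 241 (without F2 stress replicate 11) to 2431 (without F2 stress replicate 15) in F2, 0 to 1501 (without F2 stress replicate 14) for the difference, 0 to 725 (without F1 no-stress replicate 6) in the no-stress and 0 to 10 (without F2 stress replicate 14) in the stress lineage. With library totals 1 gene was called in F1, 208 in the no-stress and 0 in the stress lineage. With no low-count filter 737 were called in F2, 100 for the difference and 61 in the no-stress lineage. With only the groups compared, 0 were called in F2, in the no-stress and in the stress lineage (edgeR; 4274, 3386 and 1169 had an unadjusted p below 0.05 in the fit of all groups). With the GC content and length offset 8 were called in F2, 0 for the difference, 9 in the no-stress and 4 in the stress lineage. With 1 surrogate variable 2173 were called in F2 and 681 in the no-stress lineage, and with limma-voom 1 in the stress lineage. The depth before the totals were brought together, which limits what can be said of Ido1 in single libraries, is unknown.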
